A study of Mus musculus with 12 samples.

Results

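Expression of 8 transcription factors of the intestinal and urothelial epithelia was examined in colon and urinary bladder: *Cdx1*, *Cdx2*, *Hnf4a*, *Gata3*, *Foxa1*, *Grhl3*, *Elf3*, and *Trp63*. They were selected by gene symbol among the 54532 genes of each library. The selection rule itself uses no measured value, although the set was chosen with earlier results of these data known. The 12 libraries came from 9 male mice, with 3 libraries of each genotype (Ctrl and Y/T KO) from each tissue, and mice 788, 783, and 780 gave both tissues. All mice carried floxed *Wwtr1* and *Yap1*, the genes of TAZ and YAP, and received 1 mg tamoxifen per day in 5 daily injections at an age of 5 to 7 weeks, with tissue taken on day 7 after the first injection according to the labels. Y/T KO mice also carried Myh11CreERT2, a tamoxifen-activated recombinase driven by the smooth muscle myosin heavy chain promoter, whereas Ctrl mice were Cre-negative, so the Cre and the deletion cannot be told apart. Libraries were of polyadenylated RNA from whole tissue, in which smooth muscle carries the deletion and the 8 factors are known mainly from the epithelium.

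The lining of the gut is a single layer of columnar epithelium, whereas the urothelium of the bladder is a stratified barrier with basal, intermediate, and umbrella cells. *Cdx1* and *Cdx2* encode caudal-type homeobox proteins that specify intestinal identity, and *Hnf4a* encodes a nuclear receptor of intestinal and hepatic epithelium. *Gata3* encodes a zinc finger factor of luminal urothelium that also is used by T helper type 2 cells, innate lymphoid cells, and sympathetic neurons. *Trp63* encodes p63, a p53 relative required for basal cells of stratified epithelia. *Grhl3* encodes a grainyhead-like factor needed for epithelial barriers and umbrella cells. *Foxa1*, a forkhead pioneer factor, and *Elf3*, an ETS factor, are known from both gut and urinary epithelia.

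In these data the factors fell into a colon set (*Cdx1*, *Cdx2*, and *Hnf4a*), a bladder set (*Gata3*, *Trp63*, and *Grhl3*), and a pair that was well expressed in both tissues (*Elf3* and *Foxa1*). No factor passed the test between genotypes in either tissue. All levels are given as TPM, a unit that accounts for how long each transcript is and how much was sequenced. This lets levels of different genes be compared, although coverage in reads per base orders some of them differently.

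On GRCm38, *Elf3* (ENSMUSG00000003051) is at chr1:135253575-135258568, *Gata3* (ENSMUSG00000015619) at chr2:9857078-9890034, *Cdx2* (ENSMUSG00000029646) at chr5:147300805-147307270, *Foxa1* (ENSMUSG00000035451) at chr12:57540628-57546916, and *Grhl3* (ENSMUSG00000037188) at chr4:135541888-135573630, all on the minus strand. *Hnf4a* (ENSMUSG00000017950) is at chr2:163506808-163572910 and *Trp63* (ENSMUSG00000022510) at chr16:25683763-25892102, on the plus strand. The positions of all 8 genes are the same in GENCODE M21. An annotated RNA, 9230102O04Rik, lies inside *Gata3* on the same strand and reached 19.6 TPM, so reads shared by these 2 genes cannot be separated by strand.

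RefSeq promoters (GRCm38.p6) were found for 6 of the 8 genes. Stretches without annotated exons are shown for *Cdx2* and *Foxa1*, which hold a forkhead motif, and for *Grhl3*, which held none of 6 motifs searched, because these genes stand for the colon set, the shared pair, and the bladder set. Each runs 5′ to 3′ on the gene's own strand and ends next to the annotated start or exon, and capitals mark the forkhead match.
Cdx2 upstream: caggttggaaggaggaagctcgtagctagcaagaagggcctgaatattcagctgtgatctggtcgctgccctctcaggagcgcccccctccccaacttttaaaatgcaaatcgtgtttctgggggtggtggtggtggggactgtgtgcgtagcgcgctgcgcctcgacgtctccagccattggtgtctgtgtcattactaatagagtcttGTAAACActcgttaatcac
Foxa1 upstream: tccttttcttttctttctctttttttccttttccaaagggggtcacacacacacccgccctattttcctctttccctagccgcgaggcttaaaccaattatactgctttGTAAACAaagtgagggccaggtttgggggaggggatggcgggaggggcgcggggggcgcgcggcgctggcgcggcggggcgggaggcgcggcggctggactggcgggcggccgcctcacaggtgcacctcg
Grhl3 upstream: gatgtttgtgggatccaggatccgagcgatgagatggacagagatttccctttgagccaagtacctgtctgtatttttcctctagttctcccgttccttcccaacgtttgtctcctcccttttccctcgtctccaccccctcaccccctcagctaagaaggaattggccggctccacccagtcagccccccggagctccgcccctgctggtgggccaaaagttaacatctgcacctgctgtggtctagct
The *Cdx2* stretch is chr5:147307271-147307499, the *Foxa1* stretch is chr12:57546122-57546361, and the *Grhl3* stretch is chr4:135573633-135573882, each on the minus strand. The *Foxa1* stretch lies within the annotated bounds of *Foxa1* itself, and 2 transcripts of the gene overlap its window of 250 bases. The forkhead motif TGTTTAC, searched on both strands, was at bases -40 to -34 before the start of *Cdx2* and at -141 to -135 before that of *Foxa1*, and 3.17% of 32851 promoter windows of 250 bases held it. The other motifs were AGATAA for GATA factors (9.99% of windows), TTTATNG for CDX (9.81%), CCGGAAG for ETS factors (6.91%), AACNNGTT for grainyhead factors (3.64%), and CAAAGTCCA for HNF4 (0.384%). Beyond the forkhead matches, the only match in the members' windows was AGATAA at -52 to -47 before the distal start of *Hnf4a*. These matches describe the letters only.

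Colon and bladder libraries showed the markers of their labels. Of 18 colon epithelium genes, 17 were tested and all 17 were higher in Ctrl colon than in Ctrl bladder, led by *Lgals4* (5094 to 6057 TPM over the 6 colon libraries). Of 12 urothelium genes, 11 were lower in Ctrl colon, and *Upk1a*, a uroplakin of the umbrella cell plaque, was at 1376 to 1794 TPM in bladder. The 17 pan-epithelial genes, led by *Krt8*, *Krt19*, and *Spint2*, summed to 9143 to 13117 TPM in colon and 2963 to 3613 TPM in bladder. The 10 smooth muscle genes, led by *Tagln*, *Actg2*, and *Acta2*, summed to 4974 to 8324 TPM in colon and 17003 to 46189 TPM in bladder. The 2 tissues therefore differed in epithelial and muscle RNA together, and fewer cells of a type and less RNA per cell cannot be told apart in whole tissue. *Yap1* ranged from 69.4 to 72.1 TPM in Y/T KO bladder and from 98.6 to 110 TPM in Ctrl bladder. Its genotypes overlapped in colon, and those of *Wwtr1* overlapped in both tissues. The study reported less YAP and TAZ protein in Y/T KO colon by Western blot, with staining reduced or lost in the muscle layers. TPM here is RNA of the gene in whole tissue, which is a different measure and does not show whether smooth muscle lost the proteins.

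*Cdx1* (ENSMUSG00000024619, chr18:61018862-61036199, minus strand) was abundant in colon and near 0 in bladder. Its Ctrl colon libraries stood at 356, 205, and 333 TPM (mice 788, 786, and 787), and its Y/T KO colon libraries stood at 296, 409, and 338 TPM (mice 759, 783, and 780). It was listed at 0 in 5 of 6 bladder libraries and at 0.106 TPM in the bladder of Y/T KO mouse 782. The lowest colon library was Ctrl mouse 786, and no bladder library came near the colon range.

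*Cdx2*, the other caudal factor, showed the same order at a lower level. Its Ctrl colon libraries stood at 69.4, 30.0, and 51.0 TPM and its Y/T KO colon libraries at 89.7, 65.4, and 58.5 TPM, and it was listed at 0 in all 6 bladder libraries. Mouse 786 again was the lowest. *Cdx1* exceeded *Cdx2* in 6 of 6 colon libraries, and the ranges of the 2 genes did not overlap.

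*Hnf4a* stood at 374, 314, and 286 TPM in the Ctrl colon libraries and 338, 361, and 276 TPM in the Y/T KO colon libraries. Bladder held 0.204, 0.232, and 0.0434 TPM in the Ctrl libraries (mice 784, 785, and 788) and 0.212, 0.215, and 0.280 TPM in the Y/T KO libraries (mice 782, 783, and 780). The ratio of the tissue means was 1642. The bladder values correspond to an average coverage of 0.0332 to 0.207 reads per base, so their order is not interpretable at this depth.

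*Elf3* was the most abundant of the factors in colon and remained well expressed in bladder. Ctrl colon libraries held 588, 470, and 582 TPM, and Y/T KO colon libraries held 595, 726, and 648 TPM. Ctrl bladder libraries held 62.2, 59.4, and 72.1 TPM, and Y/T KO bladder libraries held 75.1, 52.97, and 64.5 TPM. The tissues did not overlap, and the mean was 9.34-fold higher in colon. In the 3 mice that gave both tissues, colon exceeded bladder 8.15-fold (mouse 788), 13.7-fold (mouse 783), and 10.05-fold (mouse 780).

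In TPM *Foxa1* was the factor with the smallest tissue difference, although relative to the pan-epithelial genes, given below, it differed more than *Elf3*. Ctrl colon libraries held 35.0, 31.2, and 31.6 TPM, and Y/T KO colon libraries held 37.4, 29.2, and 24.7 TPM. Ctrl bladder libraries held 54.6, 54.2, and 59.8 TPM, and Y/T KO bladder libraries held 53.1, 63.6, and 69.1 TPM. Every bladder library lay above every colon library, with a ratio of means of 1.87. Within mice, bladder exceeded colon 1.71-fold (mouse 788), 2.17-fold (mouse 783), and 2.80-fold (mouse 780).

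*Gata3* was high in bladder and low in colon. Ctrl bladder libraries held 73.0, 65.9, and 97.8 TPM, and Y/T KO bladder libraries held 83.2, 68.2, and 75.2 TPM. Ctrl colon libraries held 0.286, 0.204, and 0.287 TPM, and Y/T KO colon libraries held 0.140, 0.389, and 0.302 TPM. The bladder mean was 288-fold higher. Other cells that use *Gata3* were represented in both tissues: the 10 genes of the T cell and innate lymphoid list, led by *Lck*, *Il1rl1*, and *Cd4*, summed to 17.99 to 42.1 TPM in colon and 18.8 to 29.8 TPM in bladder. The 5 sympathetic neuron genes summed to 5.82 to 9.03 TPM in colon and 4.08 to 47.3 TPM in bladder. The part of these cells in the level of *Gata3* was not tested.

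*Trp63* stood at 47.0, 46.1, and 66.4 TPM in the Ctrl bladder libraries and 52.8, 45.7, and 41.2 TPM in the Y/T KO bladder libraries. Colon held 0.0706, 0.0772, and 0.0174 TPM in the Ctrl libraries and 0.0972, 0.0189, and 0.0313 TPM in the Y/T KO libraries, at an average coverage of at most 0.0392 reads per base. The ratio of means was 957. The basal keratin *Krt5*, named here after its values were seen, had a mean of 515 ± 83.5 TPM (SD, n = 3) in Ctrl bladder and 283 ± 6.34 TPM (n = 3) in Y/T KO bladder, which did not pass the test (limma, log2 difference -0.85, SE 0.12, adjusted p = 0.0628).

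*Grhl3* stood at 51.7, 84.8, and 80.3 TPM in the Ctrl bladder libraries and 67.8, 73.0, and 72.9 TPM in the Y/T KO bladder libraries. Colon was low but above 0 in every library, with 1.72, 1.24, and 2.78 TPM in the Ctrl libraries and 1.70, 0.833, and 1.52 TPM in the Y/T KO libraries. The ratio of means was 43.9. Genes of cornified squamous epithelium, another possible source of *Grhl3* and *Trp63*, summed to 319 to 530 TPM in bladder and 7.08 to 13.7 TPM in colon, and most of the bladder sum was *Ivl* (268 to 461 TPM). The part of squamous cells in the levels of these factors was not tested.

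**Figure D1:**
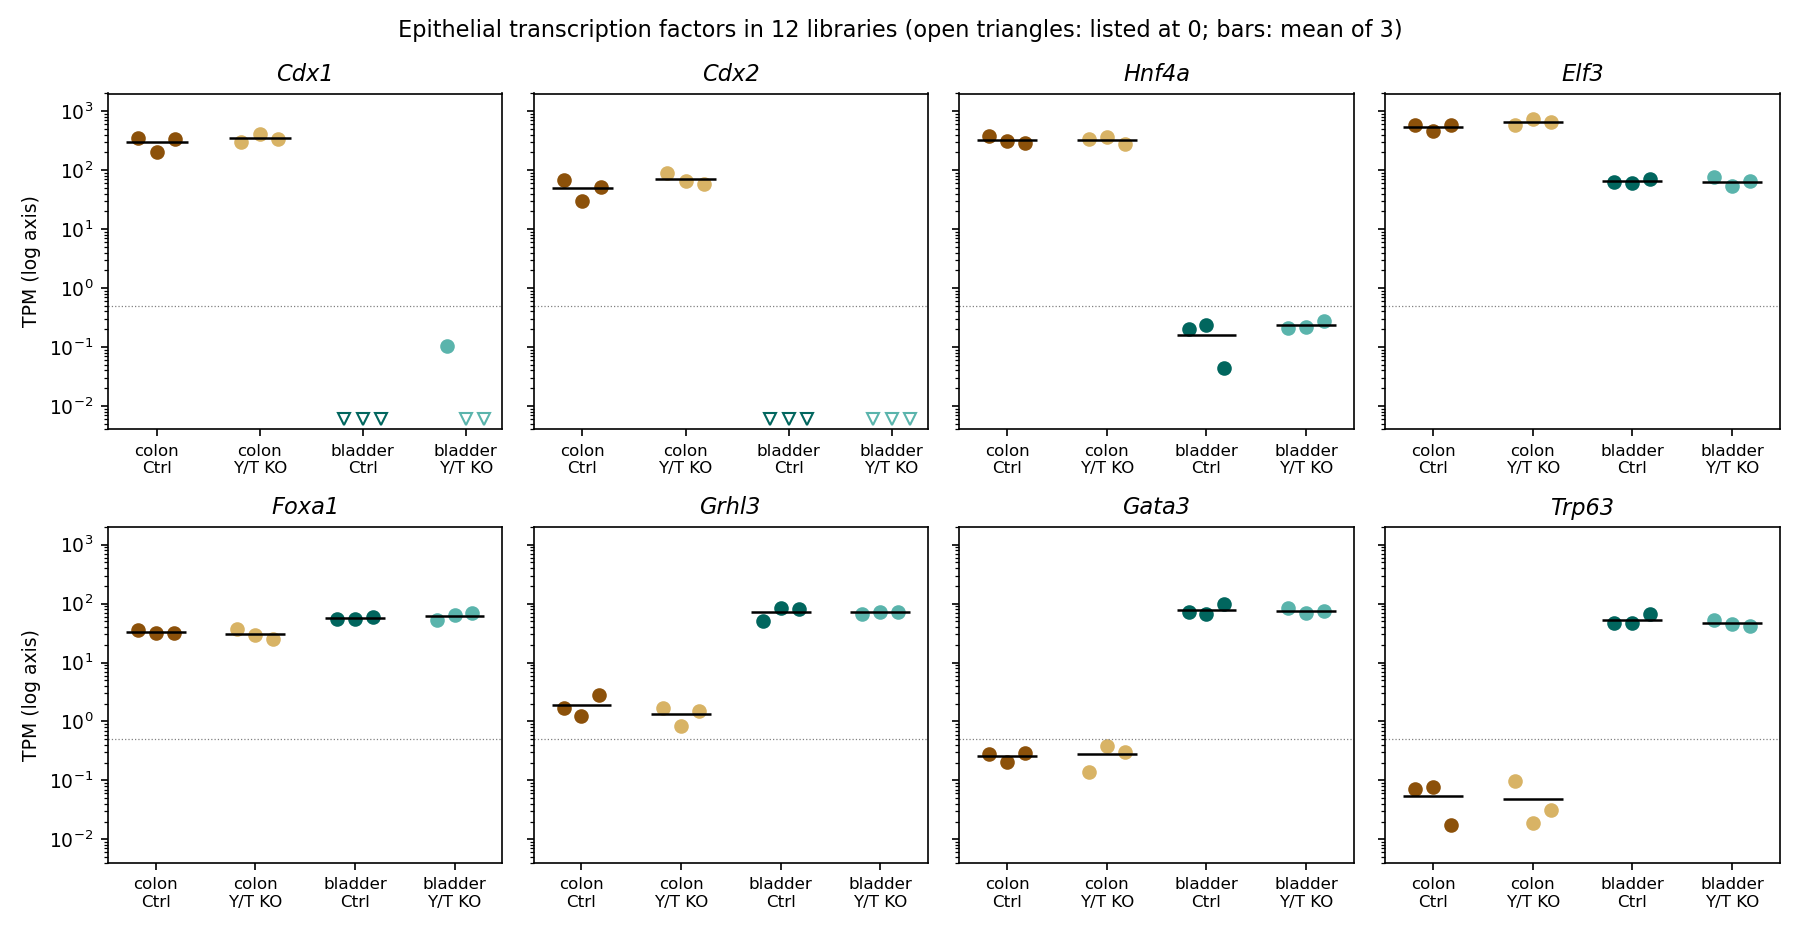
TPM of the 8 factors in each of the 12 libraries, by tissue and genotype, on a log axis. Points are libraries, bars are means of 3, open triangles mark values listed at 0, and the dotted line is the 0.5 TPM used to decide which genes were tested. *Cdx1*, *Cdx2*, and *Hnf4a* sit high only in colon, *Gata3*, *Trp63*, and *Grhl3* sit high in bladder, and *Elf3* and *Foxa1* sit high in both. *Elf3*, *Foxa1*, and *Grhl3* are above the line in all 12 libraries, with *Grhl3* at 0.833 to 2.78 TPM in colon.

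By mean level over 6 libraries the order in colon was *Elf3* (601 TPM), *Hnf4a* (325), *Cdx1* (323), *Cdx2* (60.6), *Foxa1* (31.5), *Grhl3* (1.63), *Gata3* (0.268), and *Trp63* (0.0521). Of these neighbors, *Hnf4a* and *Cdx1* overlapped, with *Hnf4a* ahead in 3 of 6 libraries, and *Cdx2* and *Foxa1* overlapped, with *Cdx2* ahead in 5 of 6. The other neighbors had separate ranges. In bladder the order was *Gata3* (77.2 TPM), *Grhl3* (71.7), *Elf3* (64.4), *Foxa1* (59.0), and *Trp63* (49.9). Each neighboring pair had overlapping ranges. The first of a pair was ahead in 4 of 6 libraries, or in 5 of 6 for *Foxa1* over *Trp63*. Compared within libraries, *Trp63* was below *Gata3*, *Grhl3*, and *Elf3* in every bladder library, and *Foxa1* was below *Gata3* in every one. *Hnf4a* (0.198), *Cdx1* (0.0176), and *Cdx2* (0) followed far below *Trp63*. The order between genes depends on the measure. By average coverage, bladder *Gata3* (40.0 to 73.7 reads per base) was below *Grhl3* (83.6 to 128). Colon *Hnf4a* (217 to 320) was below *Cdx1* (374 to 638) by the same measure.

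The tissue difference was tested in each genotype across all genes, with limma on log2(TPM + 0.1) after rescaling of the libraries, and a gene was called at an adjusted p (Benjamini-Hochberg, over all genes) under 0.05. In Ctrl mice 8 of 8 factors were called, where 50.4% of the 19773 genes tested were called. A total of 4 were higher in colon and 4 lower, against backgrounds of 25.1% and 25.3%. In Y/T KO mice the same 8 were called in the same directions, against 51.3% of all genes. All 8 also had separate ranges over 6 colon and 6 bladder libraries, as did 40.2% of the genes tested. A call or a separate range between these tissues therefore was common. *Cdx1*, *Cdx2*, and *Hnf4a* reached the 0.5 TPM required for testing only in colon, and *Gata3* and *Trp63* only in bladder. Their tissue calls were favored by how they entered the test and are no separate support. Ranked by absolute log2 difference in Ctrl mice, *Cdx1* was 20th of 19773 genes, *Hnf4a* 47th, *Cdx2* 108th, *Trp63* 156th, *Gata3* 214th, *Grhl3* 610th, *Elf3* 1358th, and *Foxa1* 11781st.

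The log2 difference of Ctrl colon from Ctrl bladder was 10.56 for *Hnf4a* (SE 0.27, adjusted p = 1.01e-10), 3.34 for *Elf3* (SE 0.15, adjusted p = 1.06e-08), -0.52 for *Foxa1* (SE 0.16, adjusted p = 0.0188), and -4.95 for *Grhl3* (SE 0.33, adjusted p = 2.85e-07). It was -7.54 for *Gata3* (SE 0.27, adjusted p = 1.29e-09) and -8.25 for *Trp63* (SE 0.27, adjusted p = 6.72e-10). The fitted values of *Cdx1* (adjusted p = 1.00e-10) and *Cdx2* (adjusted p = 1.09e-09) rest on the pseudocount, because bladder was listed at 0, and the pseudocount also understates the difference of *Hnf4a*, *Gata3*, and *Trp63*. In Y/T KO mice the values were 10.14 for *Hnf4a*, 3.64 for *Elf3*, -0.76 for *Foxa1* (SE 0.16, adjusted p = 0.00221), -5.41 for *Grhl3*, -7.47 for *Gata3*, and -8.13 for *Trp63*. The Ctrl call of *Foxa1* was lost without colon Ctrl mouse 786 (-0.44, adjusted p = 0.0654) and without bladder Ctrl mouse 788 (-0.50, adjusted p = 0.0521), and over all settings the adjusted p ran from 4.01e-08 to 0.0654.

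Values per library include muscle as well as epithelium, so the factors also were set against the pan-epithelial genes. Per 1000 TPM of that list, *Foxa1* was at 2.92 ± 0.432 in Ctrl colon and 16.2 ± 1.13 in Ctrl bladder, and at 2.60 ± 0.595 and 20.0 ± 2.57 in the respective Y/T KO groups (SD, n = 3 each). *Elf3* was at 48.4 ± 3.38 in Ctrl colon and 18.6 ± 2.17 in Ctrl bladder. For the test, added after the data were seen, each library was instead centered on the mean log2 level of the list. The Ctrl log2 difference then was -2.29 for *Foxa1* (adjusted p = 4.01e-08) and 1.57 for *Elf3* (adjusted p = 1.07e-06), against -0.52 and 3.34 with the median-of-ratios rescaling. All 8 factors kept their direction, while the median of all genes moved to -1.75 from 0.01. The centering assumes that the list stands for the amount of epithelium in both tissues, and its own members differed: 13 of 17 were called higher and 2 lower in Ctrl colon.

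**Figure D2:**
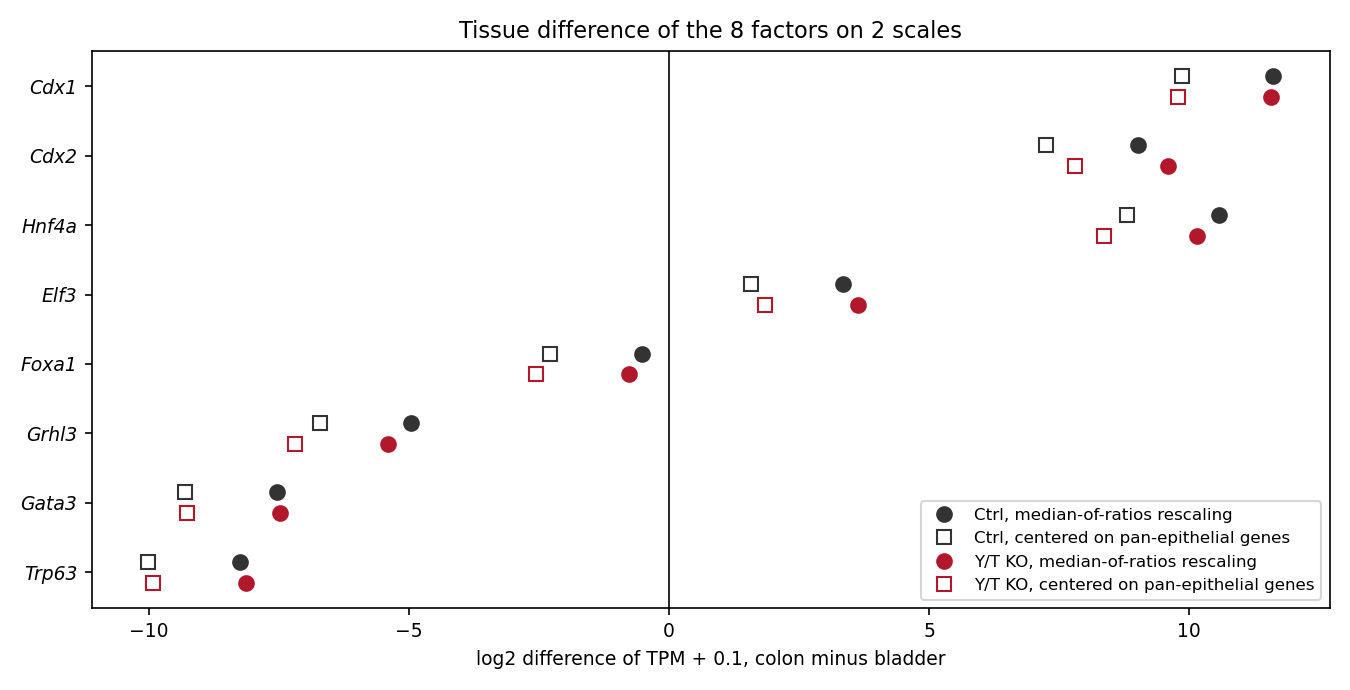
Log2 difference of colon minus bladder for the 8 factors, in Ctrl (black) and Y/T KO (red) mice, with median-of-ratios rescaling (filled circles) and with each library centered on the pan-epithelial genes (open squares). Centering moves each factor to the left, so that *Foxa1* goes from -0.52 to -2.29 and *Elf3* from 3.34 to 1.57 in Ctrl mice; values of *Cdx1* and *Cdx2* rest on the pseudocount.

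RNA of male accessory glands, which also use *Foxa1*, varied between bladder libraries. The 10 genes of that list, which include *Hoxb13* and *Pbsn*, summed to 1049, 1.84, and 2.41 TPM in Ctrl bladder (mice 784, 785, and 788) and to 3.45, 115, and 402 TPM in Y/T KO bladder (mice 782, 783, and 780). In the same order of libraries, *Foxa1* was at 54.6, 54.2, and 59.8 TPM (Ctrl) and 53.1, 63.6, and 69.1 TPM (Y/T KO). The part of gland RNA in the level of *Foxa1* was not tested. In colon the sum of the gland list was nearly all *Hoxb13*, a gene of distal gut as well as prostate (221 to 368 TPM). In Ctrl colon 7 of the 10 genes were at 0 in every library. Of 12 pancreatic acinar genes, 7 were tested between genotypes in colon and 0 were called. Of these, 6 were lower in Y/T KO and 1 was higher, with a median log2 difference of -5.39. *Ctrb1* ranged from 2.31 to 52.1 TPM in the Ctrl colon libraries and from 0.344 to 1.08 TPM in the Y/T KO colon libraries (adjusted p = 0.405), and 8 of the 12 were at 0 in every Y/T KO colon library. *Cela1*, the most abundant of the list, had a mean of 648 TPM in the Ctrl colon libraries and 714 TPM in the Y/T KO ones. It also was at 70.2 to 135 TPM in bladder. In colon the sums of the list overlapped (522 to 877 and 617 to 771 TPM), but *Cela1* made up most of them. The part of pancreatic RNA in the colon levels of *Hnf4a* was not tested.

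Relatives of the factors, listed after their values were seen, differed between the tissues in ways that the members alone do not show. Of the 3 FOXA genes *Foxa1* was the only one above trace levels in bladder: *Foxa2* ranged from 31.8 to 44.5 TPM in colon and was listed at 0 in 5 of 6 bladder libraries, and *Foxa3* ranged from 23.8 to 58.2 TPM in colon and was listed at 0 in all 6. In colon *Foxa1* (24.7 to 37.4 TPM) was thus one of 3 FOXA factors with overlapping ranges. The grainyhead family showed the opposite arrangement. *Grhl1*, like *Grhl3*, was a bladder gene (24.3 to 43.8 against 0.218 to 0.754 TPM), whereas *Grhl2* overlapped between tissues, at 14.7 to 21.7 TPM in bladder and 19.6 to 28.3 TPM in colon. The Ctrl log2 difference of *Grhl2* was 0.64 (SE 0.19, limma adjusted p = 0.0160) with median-of-ratios rescaling. It turned to -1.12 (adjusted p = 9.75e-05) after centering on the pan-epithelial genes, where the median of all genes was -1.75.

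Among GATA genes, *Gata2* (16.8 to 29.5 TPM) and *Gata5* (20.2 to 31.4 TPM) accompanied *Gata3* in bladder and were at 0.817 to 1.33 and 0.376 to 1.13 TPM in colon. *Gata6*, a factor of gut epithelium and of smooth muscle, ranged from 19.9 to 27.7 TPM in colon and from 22.7 to 38.1 TPM in bladder. Its Ctrl log2 difference did not pass the limma test (-0.22, SE 0.17, adjusted p = 0.302). After centering on the pan-epithelial genes it was -1.99 (adjusted p = 4.55e-06), near the median of all genes on that scale (-1.75). *Hnf4g*, the relative of *Hnf4a*, was a colon gene as well, at 7.45 to 23.0 TPM against at most 0.227 TPM in bladder. *Cdx4* was listed at 0 in 11 of 12 libraries.

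Among epithelial ETS genes, *Ehf* was at 161 to 251 TPM in colon and 59.8 to 111 TPM in bladder, and *Elf5* was listed at 0 in colon and ranged from 2.36 to 8.38 TPM in bladder. *Elf3* exceeded *Ehf* in mean level in colon (601 against 198 TPM), and *Ehf* was the higher one in bladder (85.2 ± 20.1 against 64.4 ± 8.17 TPM, SD, n = 6), where the ranges overlapped. Of the p53 family, *Trp53* had overlapping TPM ranges (35.6 to 51.3 in colon and 34.6 to 58.9 in bladder). Its Ctrl log2 difference was 0.0057 (limma, adjusted p = 0.978) with median-of-ratios rescaling. After centering on the pan-epithelial genes it was -1.76 (adjusted p = 1.24e-06), near the median of all genes on that scale (-1.75). *Trp73* did not exceed 0.159 TPM in any library.

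**Figure D3:**
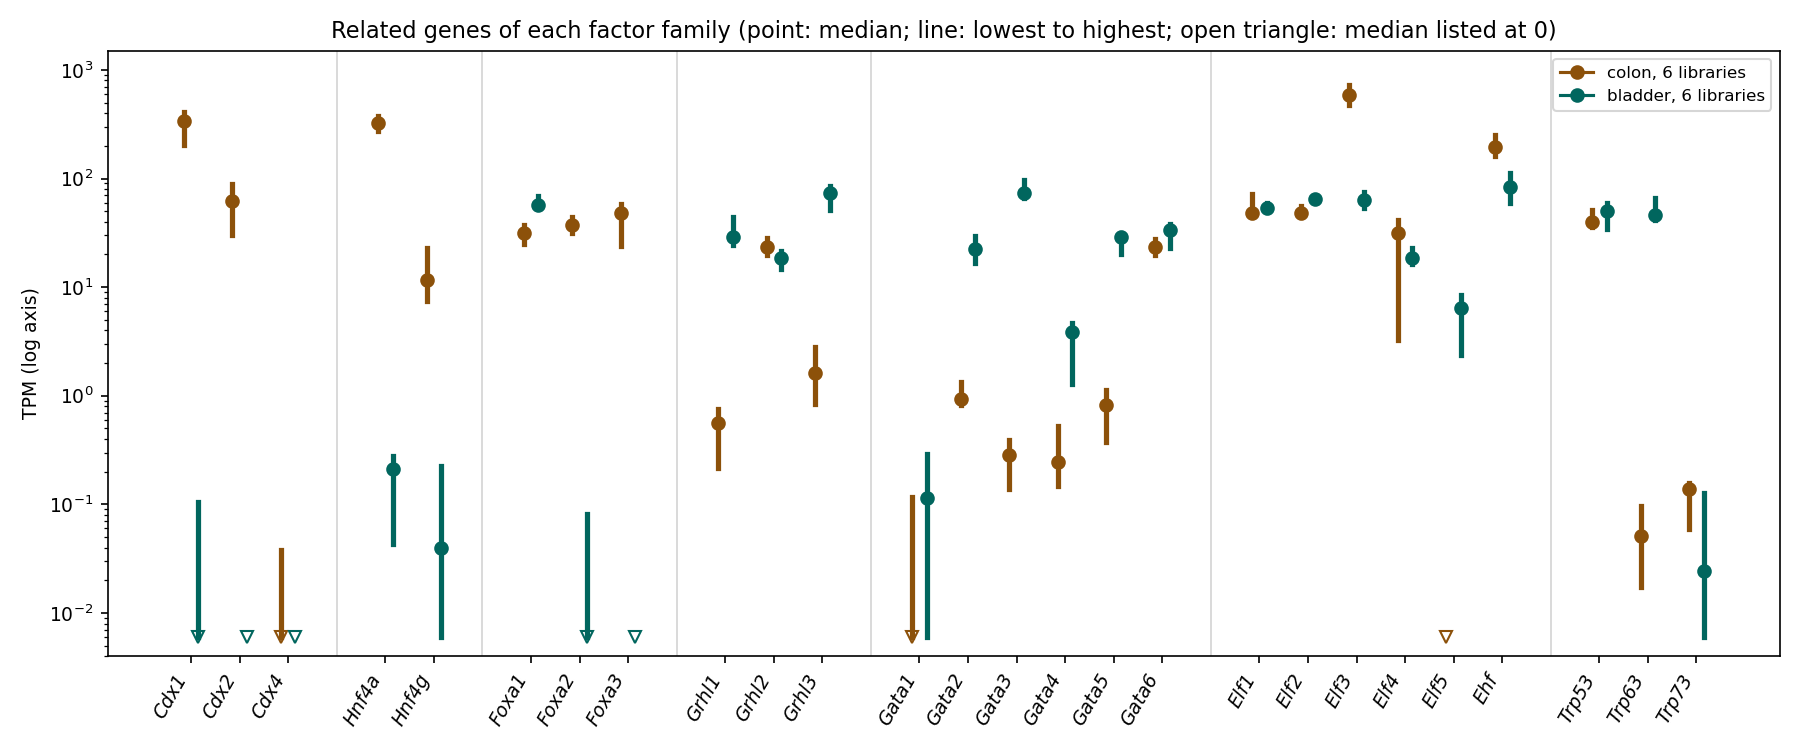
TPM of the 8 factors and their relatives on a log axis, in 6 colon (brown) and 6 bladder (green) libraries. Points are medians, lines run from the lowest to the highest library, and open triangles mark medians listed at 0. *Foxa1* is the one FOXA gene of 3 above trace levels in bladder, and *Grhl2* and *Gata6* are relatives of *Grhl3* and *Gata3* whose TPM ranges overlap between tissues.

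Of 28 other intestinal factors, 26 were tested in the tissue comparison of Ctrl mice, and 21 were called higher and 1 lower in colon, with a median log2 difference of 3.77 against 0.01 over all genes. *Klf5* and *Klf4*, Krüppel-like factors of crypt and surface cells, were at 272 to 376 and 264 to 342 TPM in colon, and *Vdr*, the vitamin D receptor, at 77.3 to 227 TPM. The one lower factor was *Gata4* (log2 difference -3.10, SE 0.43, adjusted p = 1.09e-04). Of 18 other urothelial factors, 10 were called lower and 6 higher in colon, with a median of -0.99. *Pparg*, a nuclear receptor of urothelial differentiation, was at 80.0 to 115 TPM in bladder and 41.3 to 52.4 TPM in colon, and *Klf5* (2.73, SE 0.15) and *Ehf* (1.76, SE 0.21) of the same list were among the 6 higher ones. After centering on the pan-epithelial genes, where 86.1% of all genes were called, 15 intestinal factors were called higher and 5 lower, 2 urothelial factors were called higher and 13 lower, and the sign changed for 3 of 26 and 5 of 18, with *Ehf* no longer called (adjusted p = 0.992).

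The genes whose profiles over the 12 libraries were nearest to each factor, by root-mean-square distance of centered log2(TPM + 0.1) values, mostly repeated its tissue pattern. For *Cdx1* they were *Pyy* (distance 0.387) and *Insl5*, hormones of colonic enteroendocrine cells, and *Cyp2d34*. For *Cdx2* the nearest was *Foxa3* (0.227), followed by *Cyp2d10* and *Pla2g2f*, and for *Hnf4a* it was *Cdh17* (0.329), the intestinal cadherin, followed by *Ush1c* and *Clrn3*. For *Gata3* they were AL805899.1 (0.282), the homeobox gene *Msx2* (0.294), and the overlapping 9230102O04Rik (0.295). For *Trp63* they were *Adam28* (0.282), *Gm13398*, and *Msx2*, and for *Grhl3* they were *Duox1* (0.355), *Nipal4*, and *Ttc23l*. *Elf3* was nearest to *Syt13* (0.150), *Ethe1*, and *Bcl11b*, and *Foxa1* to *Ube2d1* (0.116), *Rcn2*, and *Atp6v1d*. The distances are a description over 12 libraries, in which the 2 tissues supply most of the spread.

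The question of the study was what loss of YAP and TAZ in smooth muscle did to these organs, and the factors were compared between genotypes in each tissue. In colon 0 of the 6 tested factors were called, where limma called 0.137% of 17500 genes. None of the 6 had an unadjusted p under 0.05 either, as did 9.73% of all genes. *Elf3* was the one factor whose genotypes did not overlap: its mean was 656 ± 66.2 TPM in Y/T KO and 547 ± 66.0 TPM in Ctrl (SD, n = 3 each), with a log2 difference of 0.30 (95% interval -0.12 to 0.72, adjusted p = 0.620). Ranges that were separate and higher in Y/T KO were found for 7.52% of the genes tested.

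*Cdx2* had the largest point estimate in colon, 0.60 (interval -0.21 to 1.40, adjusted p = 0.612), with means of 71.2 ± 16.4 TPM in Y/T KO and 50.1 ± 19.7 TPM in Ctrl. *Cdx1* had 0.29 (-0.34 to 0.91, adjusted p = 0.739), *Hnf4a* 0.04 (-0.36 to 0.43, adjusted p = 0.955), *Foxa1* -0.08 (-0.51 to 0.35, adjusted p = 0.905), and *Grhl3* -0.42 (-1.40 to 0.56, adjusted p = 0.755). The intervals extend past a log2 change of 1 for *Cdx2* and *Grhl3* and lie within it for *Hnf4a*, *Foxa1*, *Elf3*, and *Cdx1*. They are not adjusted for the number of genes, and they describe whole-tissue RNA, not change within the epithelium. *Gata3* and *Trp63* were under the level required for testing in colon, and the exact permutation test over 3 and 3 libraries, whose smallest two-sided p is 0.1, gave p = 1 for each.

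In bladder 0 of the 5 tested factors were called, where 0.302% of 18237 genes were called, and 14.8% had an unadjusted p under 0.05 but none of the 5. The genotypes overlapped for all 5, as against separate ranges for 20.4% of genes. The log2 difference of Y/T KO from Ctrl was -0.05 for *Gata3* (interval -0.39 to 0.29, adjusted p = 0.902), -0.18 for *Trp63* (-0.54 to 0.19, adjusted p = 0.630), 0.01 for *Grhl3* (-0.43 to 0.45, adjusted p = 0.982), 0.13 for *Foxa1* (-0.18 to 0.44, adjusted p = 0.667), and -0.02 for *Elf3* (-0.32 to 0.28, adjusted p = 0.958). Each of these intervals lies within a log2 change of 1 in either direction. *Cdx1* (exact permutation p = 1) and *Hnf4a* (exact permutation p = 0.4) were under the tested level, and *Cdx2* was 0 in both genotypes.

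**Figure D4:**
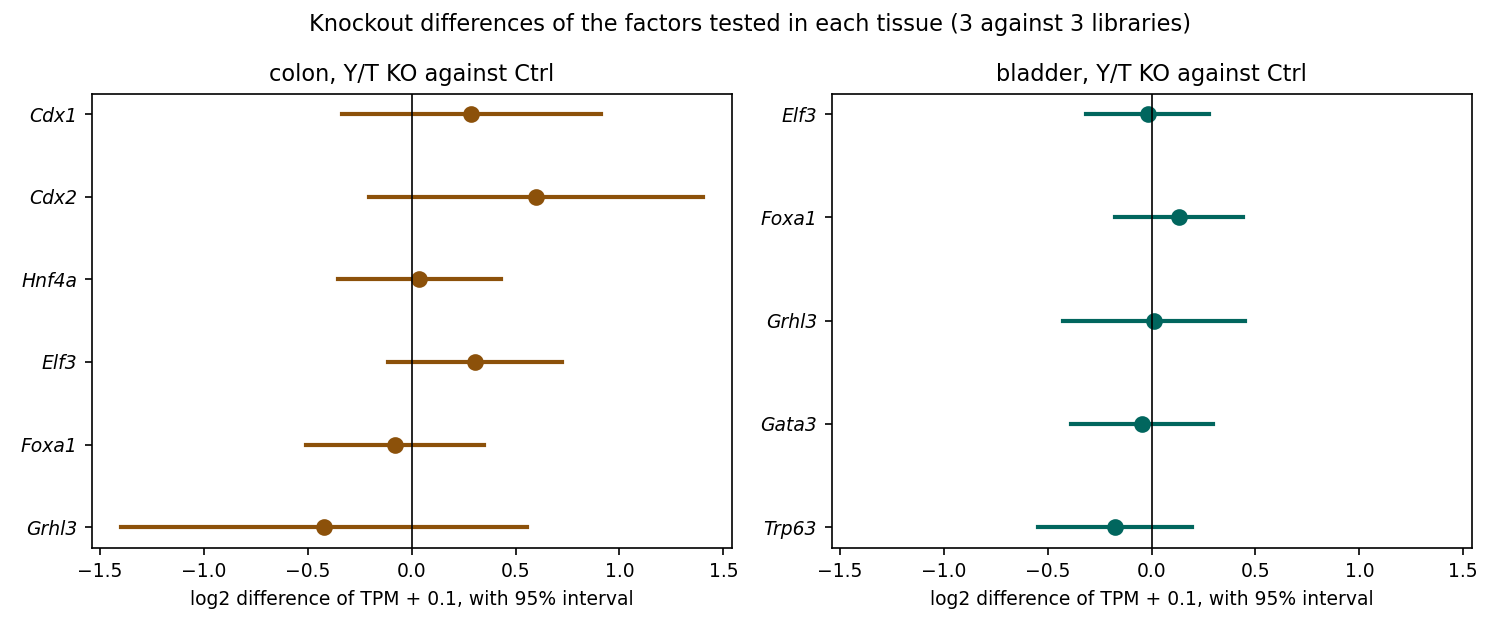
Log2 difference of Y/T KO from Ctrl with its 95% interval for the 6 factors tested in colon (left) and the 5 tested in bladder (right), 3 libraries per group. Every interval includes 0, and the widest are those of *Grhl3* and *Cdx2* in colon.

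Marker genes of other cells are given beside these comparisons, and their part in the estimates of the factors was not tested. The 10 smooth muscle genes summed to 7600 to 8324 TPM in Ctrl colon and 4974 to 5849 TPM in Y/T KO colon. In bladder they summed to 35476 to 46189 TPM in Ctrl and 17003 to 31131 TPM in Y/T KO. All 10 had values below 0 in both tissues, though 0 were called. The study reported *Actg2*, *Acta2*, and *Tagln* of this list as reduced in both tissues with its count test (DESeq2). A count of 0 called by limma on TPM therefore does not show that genes were unchanged. In colon, 15 of 17 colon epithelium genes had values below 0, with a median of -0.16 and 0 called, and 11 of 17 pan-epithelial genes had values above 0. In bladder, 10 of 12 urothelium genes had values below 0, with a median of -0.19 and 0 called. Per 1000 pan-epithelial TPM, *Elf3* was at 55.9 ± 3.17 in Y/T KO colon and 48.4 ± 3.38 in Ctrl colon, and *Cdx2* at 6.10 ± 1.55 and 4.29 ± 1.00 (SD, n = 3 each).

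Whether the knockout acted differently in colon and bladder was tested as an interaction over 12 libraries. It was called for 0 of 8 factors and for 0.0607% of 19773 genes, and 0 of 8 had an unadjusted p under 0.05, as did 11.9% of all genes. The estimates, colon minus bladder, were 0.57 for *Cdx2* (adjusted p = 0.628), 0.30 for *Elf3* (adjusted p = 0.594), -0.24 for *Foxa1* (adjusted p = 0.703), -0.42 for *Hnf4a* (adjusted p = 0.689), and -0.46 for *Grhl3* (adjusted p = 0.716). Those of *Cdx1*, *Gata3*, and *Trp63* lay between -0.05 and 0.12. For a gene near 0 in one tissue the estimate is mostly that of the other tissue plus noise of the low values.

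Of the other factors, 0 of 25 intestinal and 0 of 16 urothelial ones tested in colon, and 0 of 15 and 0 of 18 in bladder, were called between genotypes. The interaction called one, *Isx*, an intestine-specific homeobox gene that restrains vitamin A uptake (4.38, SE 0.53, adjusted p = 0.0130). *Isx* stood at 1.42, 1.06, and 0.926 TPM in the Ctrl colon libraries and 4.28, 3.49, and 7.24 TPM in the Y/T KO colon libraries, whereas the Ctrl bladder libraries held 0.548, 0.622, and 0.266 TPM and it was listed at 0 in all 3 Y/T KO libraries. The genotypes were separate in both tissues, with Y/T KO higher in colon and lower in bladder. The colon comparison alone did not pass the test (2.03, SE 0.34, adjusted p = 0.114), and *Isx* was under the tested level in bladder. The interaction was called in all 20 settings, with values of 2.01 to 4.68 and adjusted p of 0.00654 to 0.0469, and its size depends on the pseudocount because of the zeros. *Foxa3*, nearest in profile to *Cdx2*, was at 50.3 to 58.2 TPM in Y/T KO colon and 23.8 to 45.7 TPM in Ctrl colon and did not pass the test (0.66, SE 0.28, adjusted p = 0.505).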

How the data were processed

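RNA from colon and bladder was sequenced in 12 libraries. Per the labels and the study's methods, the authors aligned reads of stranded libraries to GRCm38 with HISAT2 and estimated expression with StringTie. They deposited for each gene its coverage (average reads per base), FPKM (fragments scaled by transcript length and mapped total), and TPM, made by the authors from the same fragments and summing to 1000000 per library. These are not counts, so the count test of the study (DESeq2) was not repeated here. The ratio of coverage to FPKM gave 2.80 to 3.94 gigabases aligned per library.

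Rows sharing a gene ID were added together (9 to 13 per library). Of 54409 gene IDs shared with GENCODE M21, 53453 had the same coordinates. TPM was divided by median-of-ratios size factors (0.966 to 1.11 within a tissue, 0.878 to 1.14 over 12 libraries), and genes that reached 0.5 TPM in 3 or more libraries were fitted as log2(TPM + 0.1) with limma 3.58.1 in R 4.3.3 (eBayes with trend and robust options, two-sided, Benjamini-Hochberg adjusted p under 0.05 over all genes). Genotypes were compared in the 6 libraries of a tissue, and tissues and the interaction in a fit of all 12. Factors outside a filter had an exact permutation test. Figures were made with Python 3.11.15 and matplotlib 3.10.9, and the pipeline was tested on simulated data.

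Mouse numbers pair colon and bladder because the same animal gave both, and the consensus correlation within mice was 0.0515. Libraries of a group come from different mice, so p-values measure the spread between mice. The counting error of a TPM value is unknown. The 8 factors and the marker lists were chosen with earlier results of these data known, and the relatives after their values were seen. Named genes are the 8 factors, the 3 most abundant genes of each list (1 of them is not reported here), other factors called in a knockout comparison, and the 3 nearest profiles of each factor; others are said to be chosen after their values were seen. Alternatives were a pseudocount of 1 TPM, no filter, TPM or FPKM as deposited, limma without trend and robust options, centering on the pan-epithelial genes, all 12 libraries in 1 fit, the mouse as a block, and leaving out each library.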

Additional observations from a re-analysis of the deposited data

Results flagged for a closer look

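The knockout difference of *Isx* was not the same in colon and bladder by the limma interaction over 12 libraries (4.38 on the log2 scale, SE 0.53, adjusted p = 0.0130). All 3 Y/T KO colon libraries lay above the 3 Ctrl colon libraries, and all 3 Y/T KO bladder libraries, listed at 0, lay below the 3 Ctrl bladder libraries. The Ctrl bladder values themselves were low, at 0.266 to 0.622 TPM, and *Isx* was under the level required for testing in bladder alone.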

How the results depend on the processing

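The tissue directions of all 8 factors held under every alternative, and the 16 tissue calls held except the 2 of *Foxa1* in Ctrl mice named in the report. The knockout and interaction comparisons called 0 of the tested factors under every alternative, including each library left out. The mouse as a replicate block changed no call of the 8 factors in the tissue comparisons or the interaction, where Ctrl calls stayed at 8 of 8. No paired analysis was possible between genotypes within a tissue because no mouse is in both genotypes.

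Counts over all genes moved more. The colon genotype comparison called 24 genes, 6 without a filter, 69 with all 12 libraries in 1 fit, and 5 to 63 with a library left out. The bladder comparison called 55 genes, and 11 to 51 with a library left out. The interaction called 12 genes, 19 with a pseudocount of 1 TPM, 22 without trend and robust options, and 8 to 31 with a library left out. The tissue comparison called 17020 genes in Ctrl and 16934 in Y/T KO mice after centering on the pan-epithelial genes, against 9963 and 10153. With a library left out, the Ctrl tissue comparison called 8615 to 9994 genes, and 7 to 8 of the 8 factors.

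Among the 8 factors, the signs that turned belonged to knockout or interaction estimates that passed no test. *Elf3* in bladder went from -0.02 to 0.0010 with FPKM and 0.0071 with centering, and the interaction of *Cdx1* from -0.05 to 0.22 with a pseudocount of 1 TPM and 0.14 with FPKM. With a library left out, the colon knockout estimate ranged from -0.025 to 0.46 for *Cdx1*, from -0.045 to 0.16 for *Hnf4a*, and from -0.24 to 0.049 for *Foxa1*. The bladder estimate ranged from -0.16 to 0.094 for *Gata3*, from -0.19 to 0.15 for *Grhl3*, and from -0.11 to 0.084 for *Elf3*. The interaction ranged from -0.36 to 0.26 for *Cdx1*, from -0.15 to 0.37 for *Gata3*, and from -0.12 to 0.27 for *Trp63*. The cause was not tested. Levels under 0.5 TPM rest on coverage under 1 read per base and limit what can be said of *Hnf4a* in bladder and of *Gata3* and *Trp63* in colon.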
